A study of Mus musculus with 8 samples.

Results

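The genes described here are 10 antioxidant genes, taken by name from the 50599 records in each library: the transcription factor gene Nfe2l2, 6 of the target genes of its product NRF2 (Nqo1, Hmox1, Gclc, Gclm, Srxn1 and Txnrd1), the mitochondrial scavengers Sod2 and Prdx3, and the peroxisomal scavenger Cat. All 10 were found and all 10 received an adjusted p. They were measured by RNA sequencing of whole hearts from 12-week-old male mice of the C57BL/6N strain, with 4 libraries labelled wildtype and 4 labelled Lrpprc knockout. The wildtype animals carried loxP-flanked Lrpprc alleles without Cre (Lrpprc loxP/loxP), and the knockout animals carried the same alleles with Cre (Lrpprc loxP/loxP,Cre+), which removes the gene in heart and skeletal muscle, since its loss in the whole body is lethal to the embryo. The promoter that drives Cre is not given in the sources used here. LRPPRC binds and stabilises the messenger RNAs of mitochondria, and the comparison asks how the genes of antioxidant defence stood in hearts that lacked it.

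NRF2 is held in the cytosol by KEAP1, which marks it for degradation. Oxidants and electrophiles that modify KEAP1 let NRF2 accumulate in the nucleus, where it pairs with small MAF proteins on antioxidant response elements (AREs) and activates genes for glutathione synthesis, quinone reduction, haem breakdown and thioredoxin reduction. The mitochondrial scavengers work at another site: SOD2 turns superoxide of the matrix into hydrogen peroxide, and PRDX3, a peroxiredoxin fed by mitochondrial thioredoxin, removes that peroxide. Catalase, the product of Cat, breaks down hydrogen peroxide mainly in peroxisomes. Heart muscle is rich in mitochondria, which are a source of both oxidants.

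The total of expected counts (the read counts as RSEM estimated them) was 35218541 to 47743376 per library, and mitochondrial rRNA took 44.01 to 46.86% of it in the wildtype and 65.63 to 67.84% in the knockout. Lrpprc itself was at 3607, 3946, 3424 and 3682 normalised counts (counts divided by a size factor and corrected for effective length) in the wildtype and at 597, 504, 605 and 601 in the knockout, here and below in the order of replicates 1 to 4. The groups lay apart, as the labels say (log2 fold change -2.67, standard error or SE 0.1, DESeq2, adjusted p = 3.77e-153). Cardiomyocyte markers were high in every library, with a sum over 9 genes of 1049000 to 1167000 normalised counts in the wildtype and 498200 to 652400 in the knockout, and 8 of the 9 fell. In such bulk samples, fewer cells of a type and less RNA per cell cannot be told apart. Of 12 macrophage markers 9 rose, and their sum was highest in knockout replicates 2 and 4 (13220 and 11600 normalised counts, against 7337 and 5539 in knockout replicates 1 and 3 and 5096 to 6806 in the wildtype). Of the other marker lists, all 5 neutrophil genes tested and 2 of 7 fibroblast genes (28.6%) rose. Of 5 atrial genes, 1 rose (20%) and 2 fell (40%). Over all genes tested 18.2% were called higher and 15.5% lower, and the fibroblast and upward atrial shares lay near these. DESeq2 and edgeR called 0 of 6 endothelial, 0 of 7 erythroid and 0 of 4 adipocyte genes tested. An unadjusted p under 0.05 was given to 4, 0 and 0 of them. Ngp (neutrophil) and Lep (adipocyte) received no adjusted p, and Ahsp, of the erythroid list of 8, was not found. No marker that was found was at 0 counts in all libraries.

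The bases ahead of the start of the genes are shown for the 4 genes that held a match to either of a pair of motifs, so that the regulatory letters can be read beside the values that follow. The RefSeq table of promoters (GRCm38.p6) held 8 of the 10 genes with 10 start sites, and Hmox1 and Gclc were not among them. The 250 bases before each start were searched on both strands for the ARE core TGACNNNGC and for TGACTCA, the core that AP-1 and NF-E2 proteins bind, which was added after the sequences had been seen. A TGACTCA that is followed by GC fits both motifs. Each line gives the bases from 250 to 31 before the start, 5′ to 3′ on the gene's own strand, with the matched bases in capitals.
Nfe2l2 (chr2:75704694-75704913, minus strand): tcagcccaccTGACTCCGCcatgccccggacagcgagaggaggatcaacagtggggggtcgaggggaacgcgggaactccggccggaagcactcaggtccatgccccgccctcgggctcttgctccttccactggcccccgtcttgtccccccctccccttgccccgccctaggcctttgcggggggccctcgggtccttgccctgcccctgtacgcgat
Gclm (chr3:122245307-122245526, plus strand): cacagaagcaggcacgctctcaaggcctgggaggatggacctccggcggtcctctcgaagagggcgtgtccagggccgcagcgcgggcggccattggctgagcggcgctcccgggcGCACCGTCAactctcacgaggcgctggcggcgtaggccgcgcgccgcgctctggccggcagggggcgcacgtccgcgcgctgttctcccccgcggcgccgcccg
Srxn1 (chr2:152105274-152105493, plus strand): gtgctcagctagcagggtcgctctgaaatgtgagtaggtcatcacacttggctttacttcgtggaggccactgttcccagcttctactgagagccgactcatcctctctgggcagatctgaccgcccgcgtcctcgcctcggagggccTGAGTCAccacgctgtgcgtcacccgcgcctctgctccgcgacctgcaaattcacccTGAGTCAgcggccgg
Txnrd1 (second of 3 start sites, chr10:82858956-82859175, plus strand): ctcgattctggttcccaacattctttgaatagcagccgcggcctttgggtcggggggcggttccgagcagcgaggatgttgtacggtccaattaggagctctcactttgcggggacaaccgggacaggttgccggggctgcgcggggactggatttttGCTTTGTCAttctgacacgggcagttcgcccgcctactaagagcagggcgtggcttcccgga

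The ARE core stood 240 bases before the start of Nfe2l2, 134 before that of Gclm and 92 before the second start of Txnrd1. Srxn1 held TGACTCA, read on the opposite strand, 102 and 45 bases before its start. No match lay in this window at Nqo1, Sod2, Prdx3 or Cat, nor at the other 2 starts of Txnrd1. Among all 32851 promoters of the table, 10.2% held the ARE core, 4.46% held TGACTCA and 13.9% held either. Of the 8 genes here 3 held the ARE core, and 4 of their 10 start sites held either motif. Srxn1 enters that 4 only through TGACTCA, which was added after these sequences had been seen. The 4 of 10 therefore cannot be weighed fairly against the 13.9%. A match to these letters is a description and was not tested as a binding site.

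Of the 10 genes, 8 were higher in the knockout, 1 was lower and 1 was not called (DESeq2, adjusted p under 0.05). Among all 19959 genes tested, 18.2% were called higher and 15.5% lower, 33.7% in all. Nfe2l2, all 6 NRF2 targets and Cat rose, Sod2 fell, and Prdx3 did not pass the test. In 8 genes every knockout library lay above every wildtype library, and in Sod2 every knockout library lay below, where 16.7% of all genes tested separated upward and 16.4% downward. The median log2 fold change was 1.78 over the 6 NRF2 targets and -0.31 over the 2 mitochondrial scavengers, beside 0.005 over all genes tested. No single scaling or left-out library ended a call among the 9 genes, and the calls also stood without knockout replicates 2 and 4, the libraries with the highest sums of macrophage markers, an alternative chosen after seeing the data. Sizes of the smaller changes did depend on the scaling: by total counts and by totals free of mitochondrial rRNA, the log2 fold change of Nfe2l2 was 0.295 and 1.02, that of Cat 0.497 and 1.22, and that of Sod2 -0.953 and -0.229.

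**Figure D1:**
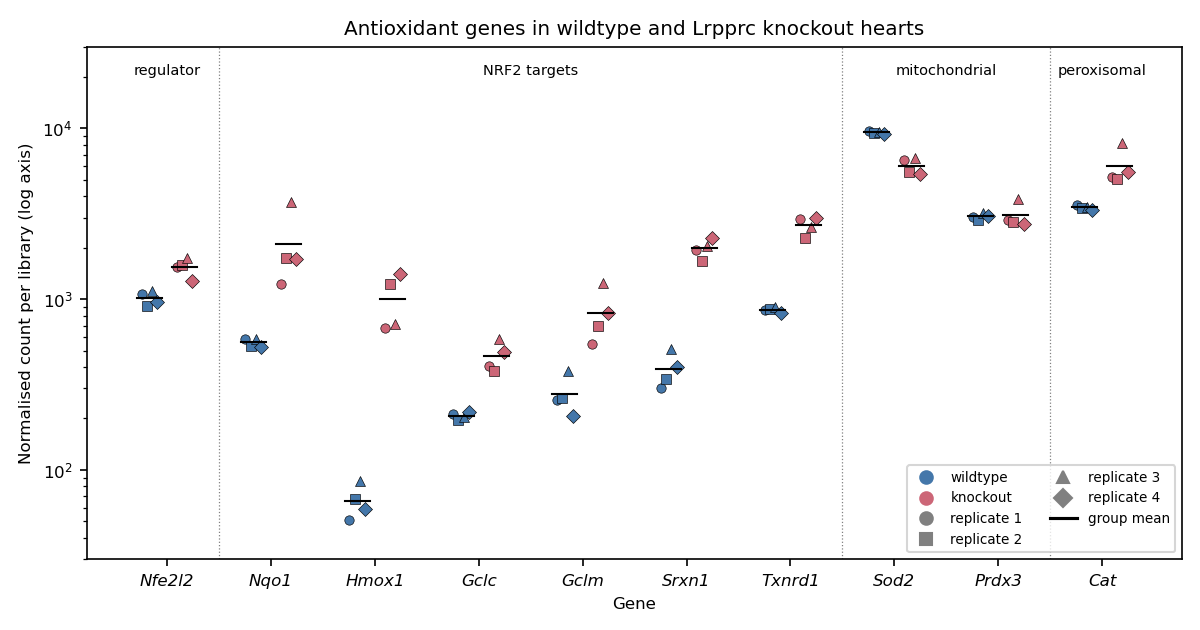
Normalised count of each of the 10 genes in each library on a log axis, with wildtype in blue, knockout in red, a marker shape for each replicate number and a black line at each group mean. The knockout points lie above the wildtype points in Nfe2l2, the 6 NRF2 targets and Cat, and below them in Sod2. In Prdx3, knockout replicate 3 lies above the wildtype points, replicate 1 among them and replicates 2 and 4 below them.

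Nfe2l2 (ENSMUSG00000015839.6, chr2:75675513-75704641, minus strand) had normalised counts of 1073, 914, 1112 and 957 in the wildtype and of 1533, 1585, 1744 and 1281 in the knockout. The lowest knockout library lay above the highest wildtype library. The means were 1014 ± 93.6 and 1536 ± 192 (SD, n = 4 each, log2 fold change 0.60, SE 0.13, DESeq2, adjusted p = 1.93e-05). This was the smallest of the 8 rises. NRF2 is controlled largely through the stability of the protein, which RNA counts do not measure.

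Hmox1, the gene of haem oxygenase 1, which cleaves haem into biliverdin, iron and carbon monoxide, had the largest rise of the 10. It lies at chr8:75093621-75100589 on the plus strand (ENSMUSG00000005413.8). Its normalised counts were 50.6, 67.8, 86.3 and 59.1 in the wildtype and 681, 1219, 715 and 1411 in the knockout. The groups lay far apart, and the knockout libraries formed a lower pair, replicates 1 and 3, and a higher pair, replicates 2 and 4. This was a 15.2-fold rise (log2 fold change 3.93, SE 0.27, DESeq2, adjusted p = 4.12e-46). The same 2 libraries held the highest sums of macrophage markers, and neutrophil markers summed to 697 and 590 normalised counts in them, against 134 and 206 in knockout replicates 1 and 3 and 62.4 to 125 in the wildtype. Macrophages express Hmox1, and their part in its rise was not separated here. Without knockout replicates 2 and 4 the log2 fold change was 3.41 (DESeq2, adjusted p = 2.06e-46). The wildtype libraries held 48 to 100 expected counts of Hmox1, the fewest of any of the 10 genes.

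The 2 subunits of glutamate-cysteine ligase, which carries out the rate-limiting step of glutathione synthesis, rose together. Gclc, the catalytic subunit (ENSMUSG00000032350.9, chr9:77754535-77794485, plus strand), was at 212, 196, 204 and 220 normalised counts in the wildtype and at 408, 380, 586 and 490 in the knockout. Every knockout library lay above the wildtype (log2 fold change 1.165, SE 0.164, DESeq2, adjusted p = 2.77e-11). Gclm, the modifier subunit (ENSMUSG00000028124.15, chr3:122245557-122270732, plus strand), was at 256, 263, 380 and 207 in the wildtype and at 545, 693, 1239 and 826 in the knockout. Here too the groups lay apart, with knockout replicate 3 the highest for both subunits (Gclm, log2 fold change 1.58, SE 0.26, DESeq2, adjusted p = 1.78e-08). One transcript of Gclm shares up to 297 bases at 95% identity or more with Ppia and its copies, among which RSEM divided reads, and Ppia itself was at 1611 normalised counts in the wildtype and 3434 in the knockout, so the level of Gclm is less certain than that of the other genes.

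Nqo1, which reduces quinones to hydroquinones and is widely used as a readout of NRF2 activity, lies at chr8:107388225-107403206 on the minus strand (ENSMUSG00000003849.8). It had normalised counts of 587, 531, 587 and 527 in the wildtype and of 1234, 1746, 3683 and 1716 in the knockout. The wildtype libraries were close together, and knockout replicate 3 stood 2.98 times above knockout replicate 1. The means were 558 ± 33.6 and 2095 ± 1080 (SD, n = 4 each, log2 fold change 1.91, SE 0.28, DESeq2, adjusted p = 1.12e-10). Without knockout replicate 3 the log2 fold change was 1.49.

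The 2 targets of the thioredoxin system had the smallest spread among the knockout libraries of the 6 targets, while the wildtype libraries of Srxn1 had a coefficient of variation of 23.6%. Srxn1, sulfiredoxin, which restores over-oxidised peroxiredoxins (ENSMUSG00000032802.8, chr2:152105516-152111376, plus strand), was at 302, 340, 511 and 398 normalised counts in the wildtype and at 1953, 1671, 2050 and 2294 in the knockout. Txnrd1, the cytosolic thioredoxin reductase (ENSMUSG00000020250.10, chr10:82833951-82897712, plus strand), was at 867, 872, 903 and 834 in the wildtype and at 2964, 2267, 2645 and 2984 in the knockout. Neither gene had overlapping groups, and their knockout libraries differed by at most 1.37 and 1.32 times. Srxn1 rose by 2.36 on the log2 scale (SE 0.18, DESeq2, adjusted p = 3.03e-39) and Txnrd1 by 1.64 (SE 0.11, DESeq2, adjusted p = 5.91e-45). The effective length that RSEM gave Srxn1, which follows the isoforms it assigned, was 1550 to 2038 bases in the wildtype and 2110 to 2632 in the knockout, and with no correction for it the log2 fold change was 2.67.

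Of the mitochondrial scavengers, Sod2 fell and Prdx3 was not called. Sod2, the manganese superoxide dismutase of the matrix (ENSMUSG00000006818.4, chr17:13006846-13040063, plus strand), had normalised counts of 9665, 9453, 9494 and 9271 in the wildtype and of 6544, 5524, 6685 and 5411 in the knockout. All knockout libraries lay below the wildtype (log2 fold change -0.65, SE 0.10, DESeq2, adjusted p = 9.76e-10). The cardiomyocyte markers given above fell beside it, and their part in the fall was not tested.

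Prdx3 (ENSMUSG00000024997.7, chr19:60864051-60874556, minus strand) was at 3020, 2899, 3212 and 3066 normalised counts in the wildtype and at 2904, 2822, 3885 and 2761 in the knockout. Of the knockout libraries, 3 lay at 2761 to 2904 and replicate 3 above all other libraries, and the groups overlapped. The fitted change was 0.02 on the log2 scale (SE 0.13, 95% interval from -0.23 to 0.27, DESeq2, adjusted p = 0.928). Its sign turned with the scaling: scaled by total counts it was at -0.29 (DESeq2, adjusted p = 0.0164), and scaled by totals free of mitochondrial rRNA at 0.44 (DESeq2, adjusted p = 7.42e-05). These scalings moved the median gene by -0.296 and 0.425, and relative to the median gene Prdx3 was at -0.01 under both, while Sod2 was at -0.68 and -0.67. Without knockout replicate 3 Prdx3 was at -0.11 (DESeq2, adjusted p = 0.259).

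Cat (ENSMUSG00000027187.10, chr2:103453849-103485160, minus strand) was at 3571, 3402, 3476 and 3340 normalised counts in the wildtype and at 5224, 5029, 8271 and 5584 in the knockout. The groups lay apart, with knockout replicate 3 well above the other 3. Cat rose by 0.81 on the log2 scale (SE 0.16, DESeq2, adjusted p = 5.96e-06).

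The 10 genes did not vary in step among the knockout hearts. Knockout replicate 3 was the highest of the 4 in 7 genes (Nfe2l2, Nqo1, Gclc, Gclm, Sod2, Prdx3 and Cat) and replicate 4 in the other 3 (Hmox1, Srxn1 and Txnrd1). The coefficient of variation among the knockout libraries ran from 11% in Sod2 to 51.8% in Nqo1, and it exceeded that among the wildtype libraries in every gene but Srxn1. Knockout replicate 3 was also lowest in the sum of macrophage, fibroblast and endothelial markers among the knockout libraries (5539, 13030 and 9829 normalised counts). Its sum of erythroid markers was the highest, at 53950 normalised counts against 15240 to 45890 in the other knockout libraries and 20900 to 27080 in the wildtype. What sets this library apart was not tested.

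**Figure D2:**
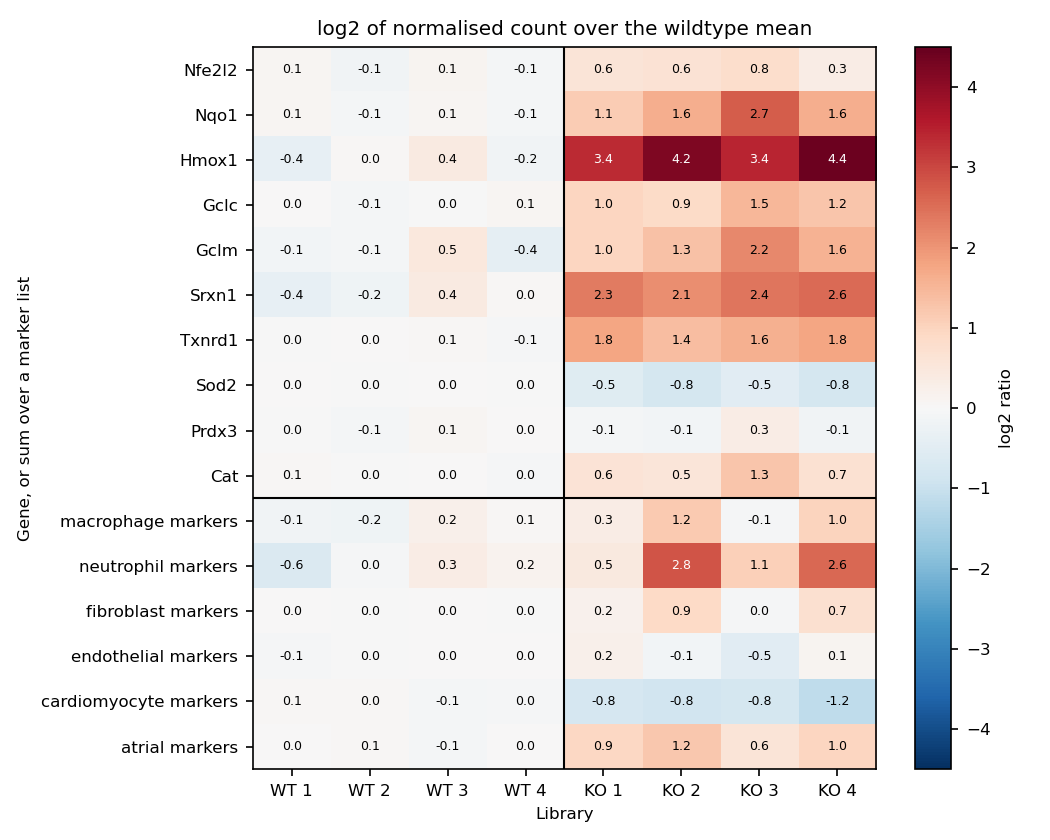
The log2 ratio of each library's normalised count to the wildtype mean, for the 10 genes in the upper block and for the sums of 6 marker lists in the lower block, with wildtype (WT) and knockout (KO) replicates in columns. The row of atrial markers follows Nppa, which rose, while the other 4 genes of that list had log2 fold changes from -3.54 to -0.85. Hmox1 reaches 4.2 and 4.4 in knockout replicates 2 and 4, where the macrophage markers are at 1.2 and 1.0, while Nqo1, Gclm and Cat are highest in knockout replicate 3, where they are at 2.7, 2.2 and 1.3 and the macrophage markers at -0.1.

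For levels between genes, TPM values were used, which correct for transcript length and library total. Genes were ordered within each group by their mean over its 4 libraries, and no TPM value was compared between the groups, since mitochondrial rRNA took 32.9 to 35.51% of TPM in the wildtype and 55.9 to 57.25% in the knockout. In the wildtype the order of mean TPM was Sod2 (71.5 ± 2.52), Prdx3 (64.1 ± 2.75), Cat (38.9 ± 1.78), Nfe2l2 (12.8 ± 1.30), Nqo1 (11.1 ± 0.817), Txnrd1 (8.82 ± 0.407), Srxn1 (5.14 ± 1.19), Gclm (5.11 ± 1.39), Gclc (1.955 ± 0.0823) and Hmox1 (1.31 ± 0.302), each as SD with n = 4. The ranges of neighbours overlapped only for Nfe2l2 with Nqo1 and for Srxn1 with Gclm. In the knockout the order was Cat (61.5 ± 12.3), Prdx3 (58.9 ± 6.82), Sod2 (41.3 ± 1.85), Nqo1 (37.4 ± 17.1), Txnrd1 (25.1 ± 3.77), Srxn1 (24.1 ± 4.05), Hmox1 (18.5 ± 7.92), Nfe2l2 (17.6 ± 1.36), Gclm (13.8 ± 4.45) and Gclc (3.98 ± 0.714). There, neighbours were apart only between Prdx3 and Sod2 and between Gclm and Gclc. Nfe2l2 went from the fourth place to the eighth, Hmox1 from the tenth to the seventh, and Sod2 and Cat changed places between the first and the third.

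The balance between NRF2 targets and mitochondrial scavengers was then taken within each library, where the scaling between libraries cancels. The summed TPM of the 6 targets was 0.236, 0.242, 0.275 and 0.233 times that of Sod2 and Prdx3 in the wildtype, and 0.977, 1.19, 1.28 and 1.44 times in the knockout. The scavengers thus outweighed the targets in all 4 wildtype libraries, and in 3 of the 4 knockout libraries the targets outweighed the scavengers. On normalised counts, the mean log2 count (plus a pseudocount of 1) of the targets minus that of the scavengers was -4.29, -4.19, -3.98 and -4.25 in the wildtype and -2.10, -1.80, -1.79 and -1.49 in the knockout. The groups differed by 2.38 on the log2 scale and did not overlap. No test was made of this balance, since the genes on both sides were chosen with earlier results of these data known. With Cat on the scavenger side the difference was 2.01.

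**Figure D3:**
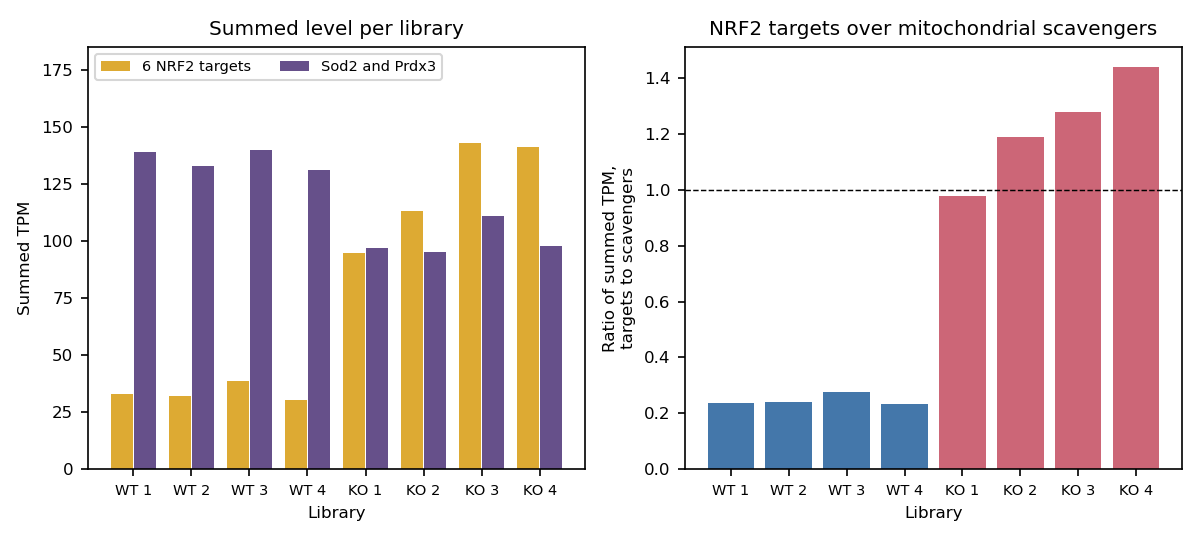
Left, the summed TPM of the 6 NRF2 targets (yellow) and of Sod2 and Prdx3 (purple) in each wildtype (WT) and knockout (KO) library; right, the ratio of the former to the latter, with a dashed line at 1. The ratio lies between 0.233 and 0.275 in the wildtype and between 0.977 and 1.44 in the knockout.

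The genes whose pattern over the 8 libraries was most like that of Nqo1, by Pearson's r on log2 normalised counts among 10441 genes, were Btf3l4 (r = 0.998), Arf1 (r = 0.997) and Cast (r = 0.997). For Prdx3 they were Tug1 (r = 0.982), Cyp4b1 (r = 0.980) and Ndufc2 (r = 0.974). These are descriptions over 8 libraries that share their size factors.

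Around the 10 genes, 84 further genes in 6 lists were examined, of which 81 received an adjusted p. Of the 81, 38 were higher (46.9%) and 7 lower (8.64%), beside 18.2% and 15.5% over all genes tested. Among 12 regulators of NRF2, 4 rose (33.3%) and the other 8 were not called, with a median log2 fold change of 0.07. Sqstm1 encodes p62, an autophagy receptor that binds KEAP1, and ranged from 3881 to 4758 normalised counts in the wildtype and from 16780 to 24650 in the knockout (log2 fold change 2.15, SE 0.14, DESeq2, adjusted p = 8.77e-48). The small MAF genes, whose products pair with NRF2, also rose, with log2 fold changes of 1.70 in Maff, 1.63 in Mafk and 0.33 in Mafg (DESeq2, adjusted p = 4.39e-08, 6.27e-19 and 0.00384). Mafg, Keap1, Cul3 and Bach1 were named after their values were seen. Keap1 was at -0.12 and its ligase partner Cul3 at 0.045, and neither passed the test. Bach1, a repressor at AREs, was at 0.03 (DESeq2, adjusted p = 0.888). With total counts 4 regulators were lower, and with totals free of mitochondrial rRNA 10 were higher.

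Of 33 further NRF2 target genes, 31 were tested, 19 rose and 2 fell, a share of 61.3% higher against the 18.2% over all genes, and the median log2 fold change was 0.64. The largest fitted rises were in Gsta2, Gsta1 and Abcc2. Gsta2, a glutathione transferase, had 2, 0, 0 and 1 expected counts in the wildtype and 97, 82, 119 and 167 in the knockout. Its summed counts, scaled by size factors, stood in a ratio of 183, with an exact 95% counting interval from 62.4 to 893. Gsta1, a close relative with which it may share reads, was at 16.7 ± 6.68 and 347 ± 50.5 normalised counts (SD, n = 4 each, log2 fold change 4.40, SE 0.26, DESeq2, adjusted p = 5.14e-61). Abcc2, an exporter of glutathione conjugates, rested on 2 counts in the wildtype and 12 in the knockout, a ratio of 7.1 with a counting interval from 1.58 to 65.3, and its groups overlapped.

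Other members of this list are given here, chosen after their values were seen. Slc7a11, the cystine importer that feeds glutathione synthesis, went from 69.2 ± 16.5 to 710 ± 129 normalised counts (SD, n = 4 each, log2 fold change 3.37, DESeq2, adjusted p = 1.98e-59). Ftl1, the ferritin light chain, rose by 1.85, while Fth1, the heavy chain, was at 0.23 and did not pass the test. The pentose phosphate genes Pgd and G6pdx, whose enzymes make NADPH, and Taldo1 and Tkt, of the branch that makes none, rose with log2 fold changes of 1.30, 1.25, 1.12 and 0.75. The 2 that fell were Gstp1, a glutathione transferase, at -0.59 and Cbr1, a carbonyl reductase, at -0.53. The other 10 tested genes were not called, namely Fth1, Gsta3, Gstm1, Abcc3, Cbr3, Osgin1, Aox1, Entpd5, Slc48a1 and Ugdh, with log2 fold changes from -0.20 (Entpd5) to 0.69 (Gsta3, DESeq2, adjusted p = 0.0554). In place of 19, the count of higher genes was 14 without knockout replicates 2 and 4, 13 with total counts and 24 with totals free of mitochondrial rRNA. The count of lower genes was 1 without knockout replicates 2 and 4, and both calls were lost with totals free of mitochondrial rRNA.

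Of the 10 further mitochondrial scavengers and reductases, 3 were higher and 3 lower (30% each), beside 18.2% and 15.5% over all genes tested. Their median log2 fold change was -0.05. Msrb2, a methionine sulfoxide reductase of mitochondria, fell from 691 ± 18.3 to 260 ± 68 normalised counts (SD, n = 4 each, log2 fold change -1.41, SE 0.18, DESeq2, adjusted p = 1.45e-13). Gpx4 and Gpx1, glutathione peroxidases found in both cytosol and mitochondria, rose with log2 fold changes of 0.83 and 0.75 (DESeq2, adjusted p = 1.78e-09 and 3.09e-06). The next 5 genes were named after their values were seen. Txnrd2, the mitochondrial thioredoxin reductase and the third gene called higher, rose by 0.49 on the log2 scale (DESeq2, adjusted p = 0.0122), and its groups overlapped. Prdx5, the other peroxiredoxin of mitochondria, was at 0.02 and Txn2, mitochondrial thioredoxin, at -0.23, and neither passed the test. Nnt and Idh2, which make mitochondrial NADPH, had log2 fold changes of -0.41 and -0.50 (DESeq2, adjusted p = 0.0251 and 0.0233), and the groups overlapped in both. The count of lower genes went from 3 to 1 without knockout replicate 2, wildtype replicate 1 or wildtype replicate 2. It was also 1 without both knockout replicates 2 and 4, with 4 higher. With total counts it was 6, and with totals free of mitochondrial rRNA it was 1, with 6 higher.

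Among 12 cytosolic, secreted and reticulum scavengers, 5 rose (41.7%, beside 18.2% over all genes tested). The other 7 were not called, and the median log2 fold change was 0.38. Txnip, which binds and inhibits thioredoxin, had the largest change at a 2.23-fold rise (DESeq2, adjusted p = 4.7e-08), followed by Gpx7, a peroxidase of the endoplasmic reticulum, at 1.57-fold and Txnrd3, a thioredoxin reductase, at 1.54-fold. The count was 11 when scaled by totals free of mitochondrial rRNA, 2 by total counts (with 1 lower), and was 3 without wildtype replicate 1 or 4.

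In glutathione synthesis and breakdown, 2 of the 7 genes tested rose (28.6%) and 1 fell (14.3%), shares near the 18.2% and 15.5% over all genes, with a median log2 fold change of -0.17. Gss, glutathione synthetase, which completes the route that Gclc and Gclm open, went from 163 ± 15.1 to 853 ± 337 normalised counts, and Chac1, which degrades glutathione, from 37.4 ± 23.0 to 551 ± 285 (SD, n = 4 each). Their log2 fold changes were 2.38 and 3.88 (DESeq2, adjusted p = 2.5e-21 and 1.61e-09). Ggct, a gamma-glutamylcyclotransferase of glutathione turnover, was at -0.53 (DESeq2, adjusted p = 0.0384). This call was lost with totals free of mitochondrial rRNA, with the replicate number as a block, and without wildtype replicate 1 or 2. It was also lost without knockout replicate 2, alone or together with replicate 4. By contrast, 3 genes of the list were lower with total counts, and leaving out knockout replicate 3 gave 2 lower genes in the list.

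Of the 9 oxidant-producing enzymes, 5 were higher (55.6%) and 1 lower (11.1%), beside 18.2% and 15.5% over all genes tested. Their median log2 fold change was 0.95. The 2 monoamine oxidases of the outer mitochondrial membrane, which release hydrogen peroxide, went in opposite directions. Maoa went from 96.2 ± 17.3 to 2710 ± 1150 normalised counts and Maob from 742 ± 81.5 to 219 ± 31 (SD, n = 4 each), log2 fold changes of 4.81 and -1.77 (DESeq2, adjusted p = 8.49e-72 and 1.05e-31). Ncf1, a subunit of the phagocyte NADPH oxidase, rose by 1.57 (DESeq2, adjusted p = 8.4e-06), with 123 and 105 normalised counts in knockout replicates 1 and 3 and 272 and 164 in replicates 2 and 4, the libraries with the highest sums of macrophage markers. Without those 2 libraries, 3 genes of the list were called higher in place of 5.

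**Figure D4:**
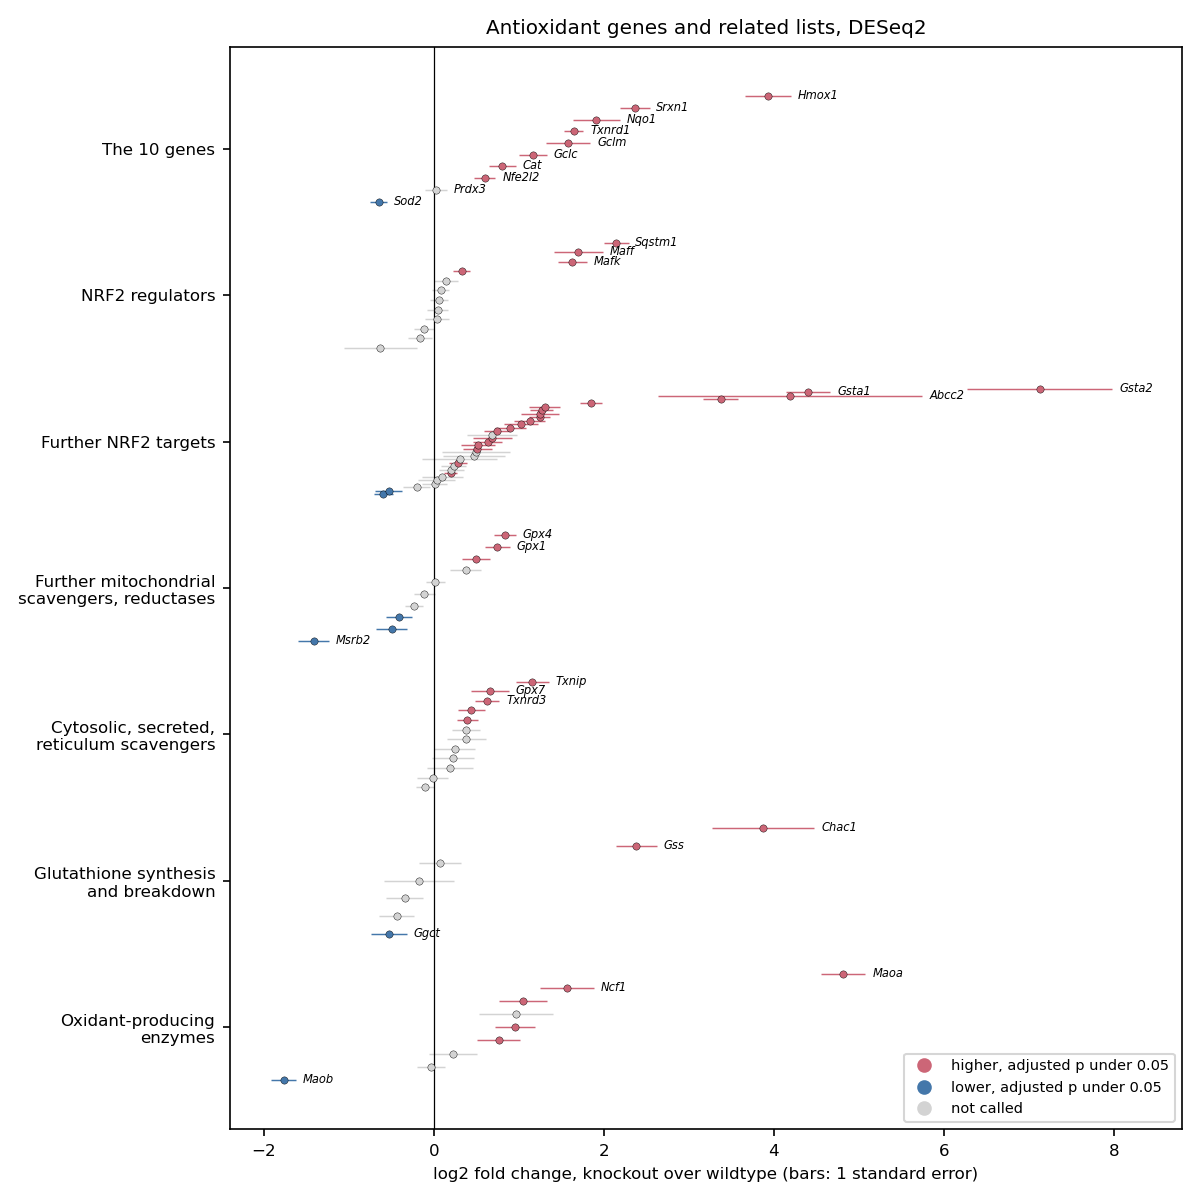
The log2 fold change, knockout over wildtype, of the 10 genes and of the genes tested in each of the 6 further lists, with bars of 1 standard error and with genes called higher in red, called lower in blue and not called in grey. Further NRF2 targets lie mostly to the right of 0, mitochondrial scavengers lie on both sides, and the fitted values of Gsta2 and Abcc2 rest on 3 and 2 counts in the wildtype.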

How the data were processed

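RNA from 8 whole hearts was depleted of cytoplasmic rRNA, primed with random hexamers and sequenced from both ends. The deposited expected counts, TPM values and effective lengths (other values, in bases) were made by the authors with RSEM 1.2.31 and Bowtie2 on GENCODE M13 transcripts with added mitochondrial sequences. RSEM divides reads between similar genes, so expected counts need not be whole, and they were rounded. The submitters' notes name mm10.

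The authors' table of fold changes and p-values and a table of normalised counts, whose 8 column names match no sample label, were not used.

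Following the authors' route, the 8 libraries were fitted by genotype alone in DESeq2 1.42.0 (R 4.3.3), with effective lengths as an offset, no shrinkage and Benjamini-Hochberg adjustment over all genes at 0.05. The titles gave the groups, and the protocols name 4 control and 4 knockout mice for the 8 libraries. No 2 replicates agreed within sampling noise (chi-square per degree of freedom 4.65 to 52.89). Counts were also simulated with means and spreads of the wildtype libraries alone, with 200 well-counted genes changed and no differences in effective length. DESeq2 recovered 97% of the 2-fold and 100% of the 4-fold changes among 20253 genes, and 7.08% of its calls were false. The real knockout pairs differed more (chi-square per degree of freedom 14.68 to 52.89) than the wildtype pairs (4.65 to 10.02). These rates therefore do not carry over to this comparison.

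The members and lists were chosen with earlier results of these data known. Genes were named by rule, and others are said in the text to have been named after their values were seen. The rule took Lrpprc, the 10 genes, up to 3 of the largest called changes in each further list, and the 3 genes most like Nqo1 and Prdx3 whose mean reached 100 normalised counts. Coordinates are GENCODE M21 (GRCm38), which matched 50339 of 50563 Ensembl identifiers. Copies were sought by blastn at 95% identity over 200 bases. Intervals on sums of counts are exact binomial and cover counting error only. The fit was repeated with edgeR 4.0.16 and TMM, without the length offset, on genes reaching 10 counts in 4 libraries, with nuclear genes setting the size factors, with total counts including or free of mitochondrial rRNA, a replicate block, another pseudocount (10), and leaving out each library.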

Additional observations from a re-analysis of the deposited data

Results flagged for a closer look

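Among 78 groups of 4 libraries examined, 6 had a library that stood apart from the other 3 by Dixon's test, where chance gives about 1 in 20, or 3.9. The groups did not take in every gene named above. Idh2, for example, was not flagged, though it was at 22840 normalised counts in knockout replicate 3, against 12660 to 14360 in the other knockout libraries. Prdx3 was at 3885 normalised counts in knockout replicate 3, against 2761 to 2904 in the others. Gpx4 in the same library was at 11650 normalised counts, against 8282 to 8684. Lrpprc was at 504.3 in knockout replicate 2, against 597 to 605. Gsta2 was at 4.17 normalised counts in wildtype replicate 1, against 0 to 0.646. Abcc2 was at 0.498 in wildtype replicate 4, against 0 in the others, and at 0.291 in knockout replicate 4, against 6.84 to 7.71.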

How the results depend on the processing

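The counts of 8 genes higher and 1 lower were the same under every alternative but the scalings by totals, where Prdx3 was also called: 2 were lower with total counts and 9 higher with totals free of mitochondrial rRNA. Prdx3 turned to -0.286 with total counts (DESeq2, adjusted p = 0.0164), to -0.00268 with edgeR (adjusted p = 0.987), to -0.109 without knockout replicate 3 (adjusted p = 0.259) and to -0.00354 without wildtype replicate 2 (adjusted p = 0.99), and passed the test at 0.436 with totals free of mitochondrial rRNA (DESeq2, adjusted p = 7.42e-05). The balance of targets over scavengers, 2.38, moved to 2.01 with Cat on the scavenger side and stayed between 2.28 and 2.48 when each library was left out in turn. Of the 6728 genes called, 53.9% were higher, and this share was 24.6% with total counts (1924 higher, 5912 lower) and 87.7% with total counts without mitochondrial rRNA (7950 higher, 1111 lower). The replicate numbers gave no sign of pairing. Correlations of same-numbered libraries ran from -0.074 to 0.072, and those of libraries with unlike numbers from -0.117 to 0.133. This check would miss a pairing that left little trace in the counts. With the replicate number as a block, 5525 genes were called, the same 8 of the 10 genes were higher and 1 lower, 5 higher cytosolic scavengers became 3, and the call of Ggct was lost. Depth limits Gsta2, Abcc2, Gstm3, Gpx2 and Ggt1, which had at most 3 counts in every wildtype library.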
